A study of Homo sapiens with 18 samples.

Results

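FOXA1 sites that were present in both MDA-MB-453 and SKBR3, and had no FOXA1 peak in T47D, were examined in chromatin immunoprecipitation sequencing (ChIP-seq) peak lists. The regions were chosen by FOXA1 peak calls. Overlapping peaks of the 2 FOXA1 replicates of a line were merged, and a merged region with a peak from each replicate was a FOXA1 site of that line. Sites of MDA-MB-453 and SKBR3 were merged, and regions that held a site of each line and were touched by no peak of either T47D FOXA1 library were kept. This gave 7131 regions, called shared sites below, of 196570 merged FOXA1 sites in the 3 lines (3.63%). MDA-MB-453 and SKBR3 are commonly classed as estrogen receptor negative and T47D as estrogen receptor positive. The labels do not give receptor status and the files hold no expression values, so the status of these cultures was not checked. With 1 receptor-positive line, receptor status and the other differences between the lines cannot be told apart.

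The study mapped the DNA binding of TLE3 and of FOXA1 in these 3 luminal breast cancer cell lines, which are established human lines with no treatment in the labels. Each of the 6 groups (MDA-MB-453 FOXA1, MDA-MB-453 TLE3, SKBR3 FOXA1, SKBR3 TLE3, T47D FOXA1 and T47D TLE3) has 2 replicates that the labels call biological, and the 6 input samples were not used here. The labels do not say whether replicates came from separate cultures, so p-values measure the spread between these libraries, which may be technical. TLE3 cells, but not FOXA1 cells, had an extra crosslinker before formaldehyde, so the 2 factors were not fixed alike. FOXA1 lists held 107598 to 188029 peaks and TLE3 lists 21149 to 94363. SKBR3 TLE3 replicate 2 stands apart with 94363 peaks of 629 bp median width, against 21149 peaks of 326 bp in replicate 1, so results that rest on it are given with and without it. The lists hold no read counts, so depth is unknown.

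FOXA1 is a forkhead pioneer factor: it binds forkhead motifs in closed chromatin and opens enhancers for other factors. In luminal breast cells it prepares binding sites for the estrogen receptor. TLE3 is a corepressor of the Groucho family. It has no sequence-specific DNA contact of its own and is brought to enhancers by partners such as TCF/LEF, RUNX and forkhead factors.

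Shared sites wholly covered 88 promoter windows of 86 genes in RefSeq sequences (GRCh38.p14; 250 bases before to 50 after a start). Of these, 6 sequences are shown as examples of FOXA1-bound promoters with and without the motifs counted below, and each gives the 250 bases before the start, 5′ to 3′ on the strand of the gene. Capitals mark forkhead matches (TGTTTAC, or else TGTTTGC, or else TATTTAC) and AP-1 matches (TGANTCA), searched on both strands, and none of the matches shown overlap. MSS51, CTDP1 and CHN2 are among the 6 promoters named for their FOXA1 rank. The other 3 of those (MEST, GCNT2 and PACSIN2) hold neither motif and are not shown, so 2 of the 6 named hold a match while 5 of the 6 shown do. KAZN, DYNLT4 and DDC were added after the matches were seen, from the next 4 by FOXA1 rank that hold a forkhead match.
MSS51: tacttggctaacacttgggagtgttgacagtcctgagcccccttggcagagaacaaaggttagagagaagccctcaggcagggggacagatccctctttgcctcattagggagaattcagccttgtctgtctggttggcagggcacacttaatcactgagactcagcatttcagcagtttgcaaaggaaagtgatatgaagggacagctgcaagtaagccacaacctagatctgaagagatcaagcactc
CTDP1: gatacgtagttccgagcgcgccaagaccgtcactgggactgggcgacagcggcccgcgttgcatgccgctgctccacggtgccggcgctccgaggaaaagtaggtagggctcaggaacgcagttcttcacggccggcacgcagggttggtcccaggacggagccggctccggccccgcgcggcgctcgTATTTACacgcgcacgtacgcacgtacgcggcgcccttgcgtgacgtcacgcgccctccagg
CHN2: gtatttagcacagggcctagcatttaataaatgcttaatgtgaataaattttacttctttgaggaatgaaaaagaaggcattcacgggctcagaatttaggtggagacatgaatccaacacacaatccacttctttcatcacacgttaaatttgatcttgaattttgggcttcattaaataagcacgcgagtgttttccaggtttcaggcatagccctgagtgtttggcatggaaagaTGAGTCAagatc
KAZN: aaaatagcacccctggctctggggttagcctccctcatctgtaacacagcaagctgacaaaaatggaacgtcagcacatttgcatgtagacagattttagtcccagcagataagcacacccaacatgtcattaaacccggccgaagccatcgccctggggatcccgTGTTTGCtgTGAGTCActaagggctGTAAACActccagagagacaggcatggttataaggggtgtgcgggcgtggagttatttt
DYNLT4: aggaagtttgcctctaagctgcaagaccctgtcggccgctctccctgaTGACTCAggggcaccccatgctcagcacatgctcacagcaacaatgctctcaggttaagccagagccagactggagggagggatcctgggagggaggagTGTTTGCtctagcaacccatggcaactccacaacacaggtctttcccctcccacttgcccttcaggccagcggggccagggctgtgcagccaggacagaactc
DDC: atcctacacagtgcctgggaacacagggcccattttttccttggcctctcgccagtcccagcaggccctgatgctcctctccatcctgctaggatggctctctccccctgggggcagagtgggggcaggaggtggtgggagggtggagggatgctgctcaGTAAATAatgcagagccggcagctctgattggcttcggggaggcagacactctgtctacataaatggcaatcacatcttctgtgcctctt
The MSS51 window (chr10:73433562-73433811, minus strand) has no match to either motif, although its shared site (chr10:73433122-73434304) ranked highest among those named, with FOXA1 percentiles of 89.7 and 88.1 in MDA-MB-453 and 90.5 and 90.2 in SKBR3. CTDP1 (chr18:79679553-79679802, plus strand) encodes a phosphatase of the RNA polymerase II tail and has 1 forkhead match in a sequence of 69.2% GC. CHN2 (chr7:29197491-29197740, plus strand), a Rac GTPase-activating protein gene, has 1 AP-1 match and 38.4% GC. The KAZN window (chr1:14929490-14929739, plus strand) holds 2 forkhead matches with an AP-1 match between them. KAZN encodes kazrin, a protein of cell junctions. DYNLT4 (chr1:44807352-44807601, minus strand) has 1 match of each motif. DDC (chr7:50561072-50561321, minus strand), the gene of aromatic amino acid decarboxylase, has 1 forkhead match.

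A forkhead match was present in 23 of the 88 windows of 300 bases (26.1%) and in 9.56% of all 34961 windows. The share was 29.1% of 103 windows at sites of SKBR3 and T47D with no MDA-MB-453 peak, 19.8% at sites of all 3 lines, and 6.86% at sites of MDA-MB-453 and T47D with no SKBR3 peak. An AP-1 match was present in 19 of the 88 windows (21.6%), in 20.4% of the SKBR3 and T47D windows, in 7.22% at sites of all 3 lines, in 3.35% at MDA-MB-453 and T47D sites and in 7.68% of all windows. A GATA match (AGATAA) was present in 14.8% of the 88 windows and 10.3% of all, and an AP-2 match (GCCNNNGGC) in 27.3% and 23.2%. A RUNX match (TGTGGTT) was present in 3.41% and 4.28%, and a grainyhead element in 1 of the 88 windows (1.14%) and 0.134% of all. The palindromic estrogen receptor element was found in 0 of the 88 windows and in 0.0572% of all. Base composition differed with these shares. The median GC was 51.8% in the 88 windows, 50.3% at SKBR3 and T47D sites, 61.0% at sites of all 3 lines, 64.3% at MDA-MB-453 and T47D sites and 58.7% in all windows, and its part in the motif shares was not tested.

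Most FOXA1 sites common to MDA-MB-453 and SKBR3 were also bound in T47D, and the shared sites are the remainder. Of 55750 regions with a site in both MDA-MB-453 and SKBR3, 43863 (78.7%) had a peak of both T47D FOXA1 replicates, 3074 had one of replicate 1 alone, 1682 had one of replicate 2 alone, and 7131 (12.8%) had none. At the edge of the rule, the T47D peak of the regions with 1 replicate lay at a median percentile of 26.9 of its list (100 is the highest score), against 79.5 where both replicates had a peak. Distances to T47D peaks are a description, because no distance from random positions was taken beside them. The nearest T47D FOXA1 peak was a median of 5347 bp away (quartiles 1922 and 12442 bp), 68.8% had one within 10 kb and 993 (13.9%) had one within 1 kb.

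FOXA1 scores chose the sites through peak calling, so the following ranks are a description and carry no test. The score of a site was expressed as the percentile of its best peak in each list. The median percentile at shared sites was 62.6 in MDA-MB-453 replicate 1, 53.4 in MDA-MB-453 replicate 2, 49.3 in SKBR3 replicate 1 and 56.0 in SKBR3 replicate 2. Sites of all 3 lines had medians of 82.3, 78.0, 70.7 and 72.9 in the same lists. Shared sites were thus of middle rank, close to the sites that MDA-MB-453 shares with T47D (60.8 and 51.9) and that SKBR3 shares with T47D (55.8 and 57.4). Their median width of 622 bp lay between the 550 and 568 bp of those classes and the 843 bp of sites of all 3 lines.

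**Figure D1:**
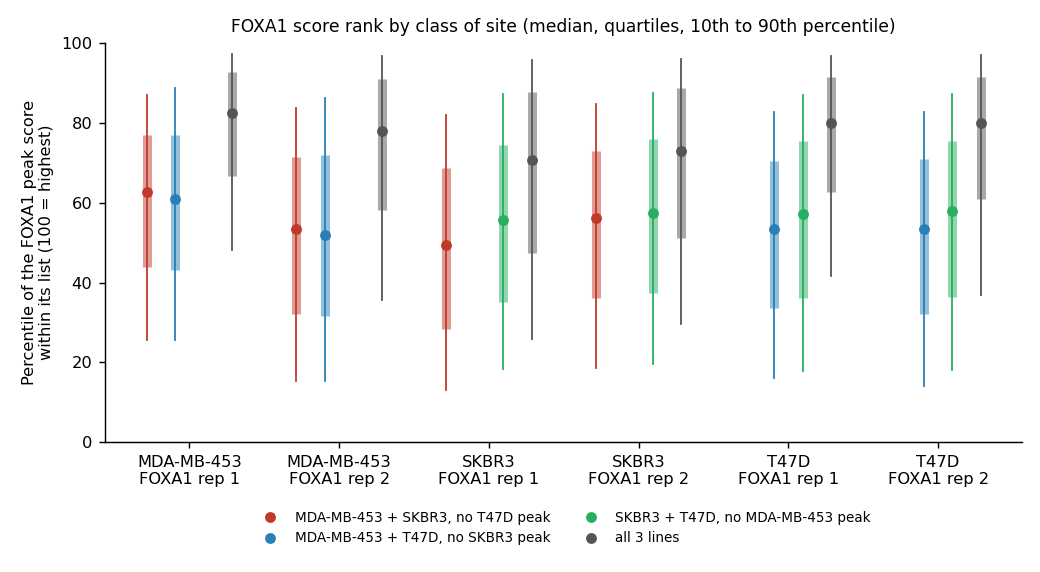
Percentile of the FOXA1 peak score within its list (y axis, 0 to 100) for 4 classes of site in the 6 FOXA1 libraries (x axis). Points are medians, thick bars quartiles and thin lines the 10th to 90th percentile over sites. Shared sites (red) have medians of 49.3 to 62.6, below the 70.7 to 82.3 of sites of all 3 lines (grey) in the same 4 libraries.

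The rank of a shared site agreed within a line and much less between lines. Over the 7131 sites, which share libraries and are not independent replicates, Pearson's r was 0.849 between the MDA-MB-453 replicates, 0.812 between the SKBR3 replicates and 0.219 between the means of the 2 lines. In 478 sites (6.70%) both lines were at or above the 75th percentile of their lists, and in 1677 (23.5%) both were below the 50th. Another 580 were at or above the 75th in MDA-MB-453 and below the 50th in SKBR3, and 364 were the other way round.

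The nearest genes of the 10 strongest shared sites were of varied function and lay up to 297338 bp away. The highest mean percentile, 98.9, was at chr21:38458179-38460911, inside ERG, which encodes an ETS transcription factor. Its FOXA1 percentiles were 98.6 and 98.2 in MDA-MB-453 and 99.3 and 99.6 in SKBR3, and the nearest T47D FOXA1 peak was 9651 bp away. This site had TLE3 peaks at the percentiles 88.0 and 69.1 in the MDA-MB-453 libraries and 96.8 in SKBR3 replicate 1, and none in T47D. The next sites were inside ACTR3C (mean 97.7), 124472 bp from TUSC1 (97.5) and 71579 bp from CDH11, which encodes a mesenchymal cadherin (97.3). A site in MED24, a Mediator subunit gene on chromosome 17, had a mean of 96.3. Of the 10 highest sites, each had a peak in both MDA-MB-453 TLE3 libraries, 8 had one in SKBR3 TLE3 replicate 1 and 0 had one in either T47D TLE3 library. Over all shared sites these shares were 14.0%, 19.9% and 7.95%. The 10 were picked by FOXA1 rank. In the highest of 5 classes of that rank, TLE3 was at 78.3% and 48.6% of shared sites in MDA-MB-453 and 53.8% in SKBR3 replicate 1.

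TLE3 peaks were not used to choose the sites, but they are not independent of the choice. The rule asked for FOXA1 in MDA-MB-453 and SKBR3 and for none in T47D. TLE3 peaks went with FOXA1 rank in MDA-MB-453 and in SKBR3 replicate 1, as given below. In MDA-MB-453 and SKBR3 the share of shared sites with TLE3 lay within 5 points of the share over all FOXA1 sites of the line, and in T47D it was far lower. Peaks of MDA-MB-453 TLE3 replicate 1 overlapped 2270 shared sites (31.8%, 95% Wilson interval 30.8 to 32.9%), where the background over all FOXA1 sites of the line was 29.7%. For MDA-MB-453 replicate 2 the count was 1024 (14.4%, 13.6 to 15.2%; background 16.1%). SKBR3 replicate 1 had 1421 (19.9%, 19.0 to 20.9%; background 20.9%) and SKBR3 replicate 2 had 1244 (17.4%, 16.6 to 18.3%; background 22.4%). T47D replicate 1 had 121 (1.70%, 1.42 to 2.02%) and T47D replicate 2 had 553 (7.75%, 7.16 to 8.40%), against 22% and 37.8% of the FOXA1 sites of T47D. The intervals cover the counting of sites alone. Averaged over replicates, TLE3 was at 23.1% ± 12.4 (SD, n = 2) of shared sites in MDA-MB-453, 18.7% ± 1.76 (SD, n = 2) in SKBR3 and 4.73% ± 4.28 (SD, n = 2) in T47D.

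**Figure D2:**
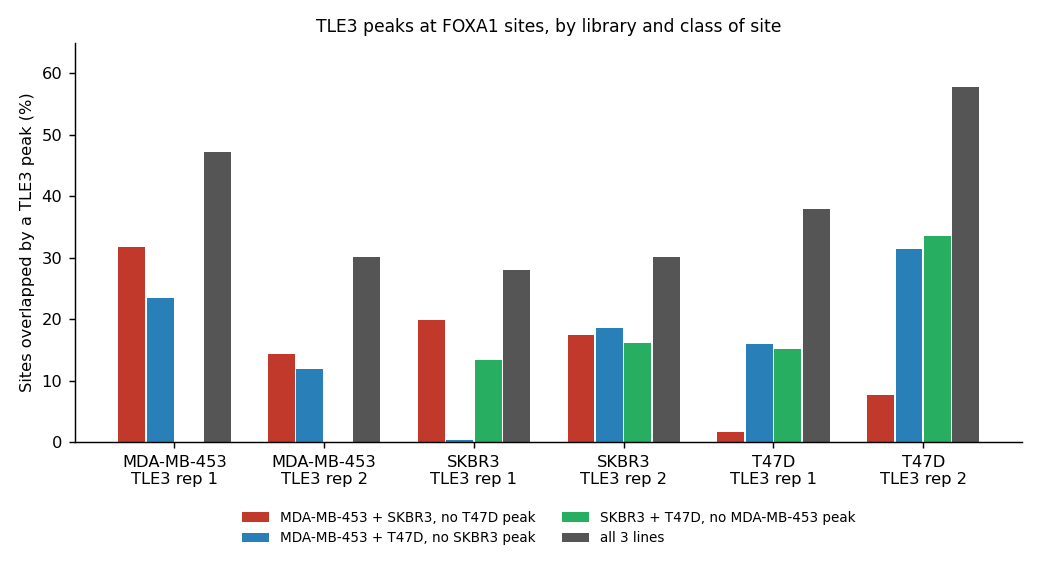
Percent of FOXA1 sites overlapped by a TLE3 peak (y axis) in the 6 TLE3 libraries (x axis), for 4 classes of site (colours); each bar is 1 library. At shared sites (red) the 4 libraries of MDA-MB-453 and SKBR3 reach 14.4 to 31.8% and the 2 of T47D 1.70 and 7.75%.

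To allow for the length of each list, the percent at shared sites was set against the percent at sites of all 3 lines in the same library. At those sites TLE3 lay at 47.2% and 30.2% in MDA-MB-453, 28.0% and 30.2% in SKBR3, and 38.0% and 57.7% in T47D. The difference was -15.4 and -15.8 percentage points in MDA-MB-453, -8.04 and -12.8 in SKBR3, and -36.3 and -50.0 in T47D. The libraries of T47D did not overlap the other 4, and the mean difference between the lines was 30.2 points (exact two-sided permutation of the line over 6 libraries, p = 0.0667, the smallest p this design allows). Without SKBR3 TLE3 replicate 2 it was 30.1 points (p = 0.1, exact). Sites of all 3 lines hold T47D FOXA1 and shared sites by rule do not. This difference between lines therefore cannot be told apart from the choice of sites. Within MDA-MB-453 and SKBR3, TLE3 was at fewer shared sites than sites of all 3 lines, by 13.0 points on average and in 4 of 4 libraries (exact sign-flip permutation, two-sided, p = 0.125, the smallest possible; by 13.1 points without SKBR3 TLE3 replicate 2). No comparison of 4 or 6 libraries here can reach 0.05.

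Shared sites were also set against FOXA1 sites that the line shares with T47D and not with the other receptor-negative line. In MDA-MB-453 the sites shared with T47D had TLE3 at 23.4% and 11.9%, which is 8.43 and 2.41 points below the shared sites. In SKBR3 they had TLE3 at 13.5% and 16.2%, which is 6.44 and 1.23 points below. The mean was 4.63 points, higher in 4 of 4 libraries (exact sign-flip permutation, two-sided, p = 0.125) and 5.76 without SKBR3 TLE3 replicate 2. Shared sites were also wider than these classes. At equal width, an alternative chosen after seeing the data, the differences were 3.37 and -0.63 points in MDA-MB-453 and 4.42 and -0.10 in SKBR3, so 2 of 4 libraries turned. The mean was 1.76 points (exact sign-flip permutation, two-sided, p = 0.5), and 2.39 without SKBR3 TLE3 replicate 2 (p = 0.5, exact).

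TLE3 peaks were more frequent at shared sites of higher FOXA1 rank, as they were at sites of all 3 lines. The shared sites were cut into 5 equal classes of FOXA1 rank. From the lowest to the highest class in MDA-MB-453, the shared sites with a TLE3 peak of replicate 1 were 5.47%, 10.8%, 23.6%, 40.9% and 78.3%. Sites of all 3 lines in the same rank ranges had 3.61%, 6.09%, 12.3%, 26.3% and 73.1%. For SKBR3 TLE3 replicate 1 the shared sites had 4.28%, 6.59%, 11.2%, 23.7% and 53.8%, and sites of all 3 lines 2.54%, 3.10%, 5.38%, 12.6% and 52.3%. In these 2 libraries the shared sites lay above sites of all 3 lines in each class, and in MDA-MB-453 TLE3 replicate 2 they did so in all but the highest, with 48.6% against 51.1%. SKBR3 TLE3 replicate 2 showed no such gradient, with 17.5%, 14.3%, 16.8%, 16.9% and 21.7% of shared sites. At equal FOXA1 rank the difference between shared sites and sites of all 3 lines was 7.55 and 1.46 points in MDA-MB-453, and 4.74 and -12.2 points in SKBR3 replicates 1 and 2. The mean was 0.391 points (exact sign-flip permutation, two-sided, p = 0.875), and 4.58 points without SKBR3 TLE3 replicate 2, positive in 3 of 3 libraries (p = 0.25, the smallest possible for 3, exact). The mean was -1.99 points without MDA-MB-453 TLE3 replicate 1 and -1.06 without SKBR3 TLE3 replicate 1. Its size and its sign thus rest on single libraries. At equal width in place of rank the differences were 1.07, -3.14, 3.41 and -9.03 points in the same order of libraries. Their mean was -1.92 points (p = 0.75, exact), and 0.449 points without SKBR3 TLE3 replicate 2, positive in 2 of 3 libraries (p = 0.75, exact).

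**Figure D3:**
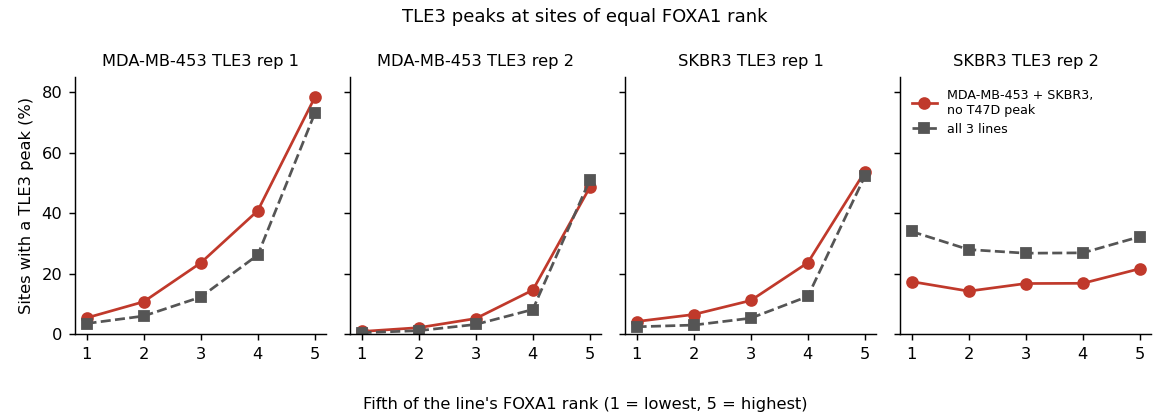
Percent of sites with a TLE3 peak (y axis) by class of the FOXA1 rank in the line of the library (x axis, 5 equal classes of shared sites, 1 lowest), for shared sites (red circles) and sites of all 3 lines (grey squares), 1 panel per TLE3 library. In MDA-MB-453 replicate 1 the shared sites go from 5.47% to 78.3%, while SKBR3 replicate 2 stays between 14.3 and 21.7%.

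The TLE3 libraries marked partly different shared sites in the 2 lines. No peak of any of the 6 TLE3 libraries touched 3421 shared sites (48.0%), or 4050 (56.8%) with SKBR3 replicate 2 left out. Both MDA-MB-453 libraries had a peak at 997, and 381 of the shared sites (5.34%) had these and a peak of SKBR3 replicate 1. Of the 1024 sites with MDA-MB-453 replicate 2, 97.4% had replicate 1. Of the 1421 with SKBR3 replicate 1, 28.7% had SKBR3 replicate 2 and 55.3% had MDA-MB-453 replicate 1. Among sites without SKBR3 replicate 1 the shares were 14.6% and 26.0%. The 616 sites with both MDA-MB-453 libraries and not SKBR3 replicate 1 had a median FOXA1 percentile of 85.3 in MDA-MB-453 and 48.7 in SKBR3. The 629 sites with SKBR3 replicate 1 and neither MDA-MB-453 library had 46.5 in MDA-MB-453 and 77.1 in SKBR3. TLE3 of one line and not the other therefore went with a high FOXA1 rank in that line.

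Sites with the highest TLE3 rank in both lines were named from those with peaks of both MDA-MB-453 libraries and SKBR3 replicate 1. The first was the site 71579 bp from CDH11 (chr16:65195323-65197377), with TLE3 percentiles of 99.2, 98.6 and 89.8. Its FOXA1 percentiles were 99.9 and 99.8 in MDA-MB-453 and 94.2 and 95.5 in SKBR3. It had no T47D TLE3 peak. Next was a site inside CDC42BPB (chr14:102948938-102950408), the gene of a CDC42-binding kinase, with TLE3 percentiles of 95.1, 93.9 and 98.5. A site inside MAP3K5, which encodes the stress kinase ASK1 (chr6:136757128-136757801), had 92.7, 92.8 and 97.1 and no peak in T47D. A site inside LGR6 (chr1:202283247-202284344), which encodes an R-spondin receptor of the WNT pathway, had TLE3 percentiles of 95.5, 93.4 and 98.3 with FOXA1 at 79.0 and 75.4 in MDA-MB-453 and 45.8 and 59.3 in SKBR3. It also had T47D TLE3 peaks at 48.3 and 84.3.

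T47D had TLE3 peaks at some shared sites although it had no FOXA1 peak there. Either T47D TLE3 library touched 567 shared sites (7.95%) and both touched 107 (1.50%). Of the 567, 106 had no TLE3 peak in MDA-MB-453 or SKBR3. The same reading in the mirrored classes, TLE3 of the line that lacks FOXA1, was 0.329% and 18.6% for SKBR3 at sites of MDA-MB-453 and T47D, and 0.106% and 0.0151% for MDA-MB-453 at sites of SKBR3 and T47D. Near gene ends, within 1 kb of a protein-coding gene end, T47D TLE3 lay at 3.57% and 13.1% of the 252 shared sites there, and at 1.63% and 7.56% of the others. Away from gene ends, a site with T47D TLE3 that was named by its TLE3 rank in the other lines lay inside GPR161 (chr1:168098317-168099127), which encodes a ciliary receptor of the Hedgehog pathway. T47D TLE3 was at the percentiles 89.1 and 94.4 there, MDA-MB-453 TLE3 at 96.4 and 92.0 and SKBR3 replicate 1 at 91.5, and the nearest T47D FOXA1 peak was 3449 bp away. A site inside ERC2 (chr3:55620097-55621432) had T47D TLE3 at 33.7 and 66.2, MDA-MB-453 TLE3 at 97.2 and 91.0, and a nearest T47D FOXA1 peak at 36880 bp.

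Few shared sites lay close to gene ends. Of the 7131, 252 (3.53%) lay within 1 kb of either end of a protein-coding gene, against 10.2% of MDA-MB-453 and T47D sites, 4.19% of SKBR3 and T47D sites and 9.96% of sites of all 3 lines. The median distance of shared sites was 49780 bp, 50.1% lay within 50 kb and 34.1% beyond 100 kb, and 3519 (49.3%) touched the span of a protein-coding gene. MDA-MB-453 and T47D sites lay farther away by these measures, with a median of 51700 bp, 49.3% within 50 kb and 37.6% beyond 100 kb. SKBR3 and T47D sites (40212 bp, 55.6% and 28.2%) and sites of all 3 lines (33790 bp, 58.6% and 26.7%) lay nearer. Sites with SKBR3 TLE3 replicate 2 were nearer to gene ends, with 9.0% within 1 kb, than sites with MDA-MB-453 TLE3 replicate 1 (2.82%) or replicate 2 (2.83%) or SKBR3 TLE3 replicate 1 (3.52%).

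Shared sites were spread unevenly over the genome, and other classes of FOXA1 site were uneven over chromosomes too. Which class was more uneven was not tested. As a share of all FOXA1 sites of the series, shared sites ranged from 2.56% on chromosome 21 to 5.43% on chromosome 22, with 5.12% on chromosome 2 and 4.67% on X. SKBR3 and T47D sites numbered 106 of 6335 series sites on X and 265 of 4518 on chromosome 20. MDA-MB-453 and T47D sites numbered 135 of 2303 on chromosome 22 and 1760 of 13308 on chromosome 5. Of the 2876 stretches of 1 Mb with a FOXA1 site of the series, 2173 held a shared site, with a median of 3. The 63 stretches with 10 or more shared sites held 752 (10.5%). The densest, chr2:12000001-13000000, held 25 shared sites and the gene TRIB2, which encodes a pseudokinase. It had 60 FOXA1 sites of MDA-MB-453, 62 of SKBR3 and 7 of T47D. TLE3 there had 17 and 11 peaks in MDA-MB-453, 10 and 30 in SKBR3, and 0 and 0 in T47D. The next, chr3:55000001-56000000, held 21 shared sites with CACNA2D3, WNT5A and ERC2. MDA-MB-453 had 48 FOXA1 sites there, SKBR3 had 79 and T47D had 10. TLE3 peaks numbered 24 and 16 for MDA-MB-453, 19 and 48 for SKBR3, and 6 and 9 for T47D. On X, chrX:105000001-106000000 held 14 shared sites, with 45, 42 and 3 FOXA1 sites in the 3 lines. The stretches were picked by counts of regions without a T47D peak, so their T47D FOXA1 counts are a description. Of the 7131 shared sites, 2 lay in a stretch with no T47D FOXA1 site. 

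Around single genes, the largest number of shared sites within 50 kb of either gene end was 8, at TOX3, a breast cancer susceptibility gene of the HMG-box family. TOX3 had 25 FOXA1 sites of MDA-MB-453, 15 of SKBR3 and 6 of T47D in that distance. The strongest of the 8 (chr16:52386420-52387605) had FOXA1 percentiles of 95.3 and 92.8 in MDA-MB-453 and 92.1 and 95.1 in SKBR3, and TLE3 percentiles of 84.6, 79.4 and 71.7 in MDA-MB-453 replicates 1 and 2 and SKBR3 replicate 1. IL1R1, the receptor of interleukin-1, and SH3BP4 had 7 each. PPT1, ELAVL4, NVL, TRIB2, CRACDL, ITGB6 and RBMS1 had 6 each. These genes were picked by counts of regions without a T47D peak, so their T47D counts are a description. They were 1 at TRIB2 (14 sites of MDA-MB-453, 13 of SKBR3 and 1 of T47D) and 1 at ELAVL4, a neuronal RNA-binding protein gene (9, 9 and 1). At TRIB2 none of the 6 sites had TLE3 of both MDA-MB-453 libraries, which 14.0% of all shared sites had.

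**Figure D4:**
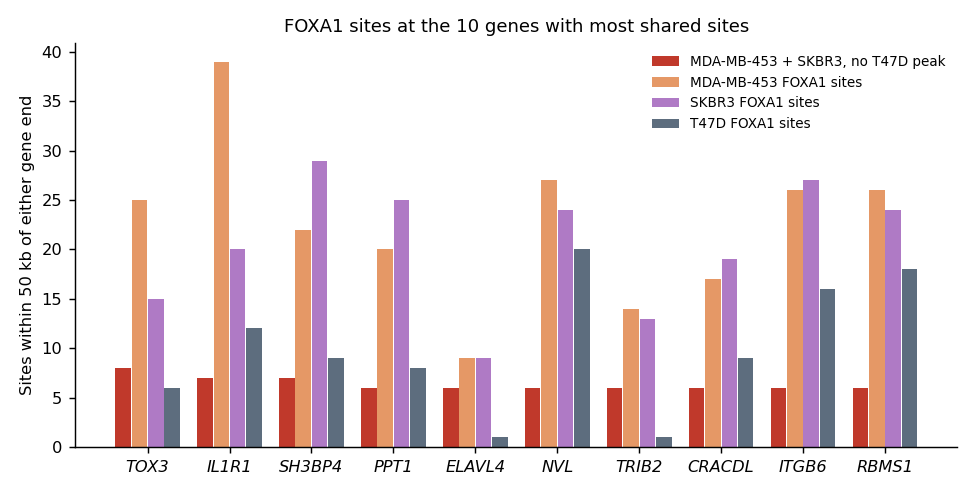
Number of FOXA1 sites within 50 kb of either gene end (y axis) for the 10 genes with most shared sites (x axis): shared sites and all sites of each line, as coloured bars. TRIB2 and ELAVL4 have 1 T47D site each, beside 9 to 14 in the other lines.

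Over all protein-coding genes, 4904 of 19970 had a shared site within 50 kb, a background of 24.6%. This background was 26% for sites of SKBR3 and T47D, a class of similar size (6631), and 55.6% for the 19752 sites of MDA-MB-453 and T47D. Gene lists were read against it by their counts, with no test, and their median number of shared sites per gene was 0 except for WNT and TCF genes, as it was over all genes. Genes of the estrogen response stood near shared sites in 4 of 20 (20%) and near sites of SKBR3 and T47D in 12 of 20 (60%). The 4 were ESR1, CA12, RARA and RET. Luminal identity genes had a shared site in 9 of 22, among them GATA3, FOXA1, KRT8 and TFAP2B, and androgen response and apocrine genes in 8 of 20. Near SKBR3 and T47D sites these 2 lists had 11 of 22 and 8 of 20, and near MDA-MB-453 and T47D sites 18 of 22 and 11 of 20. ERBB pathway genes had a shared site in 8 of 20 and basal identity genes in 2 of 19, TP63 and LAMA3. Near SKBR3 and T47D sites these had 7 of 20 and 7 of 19. Of the 13 AP-1 genes, 0 had one, against 4 near SKBR3 and T47D sites and 11 near MDA-MB-453 and T47D sites.

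**Figure D5:**
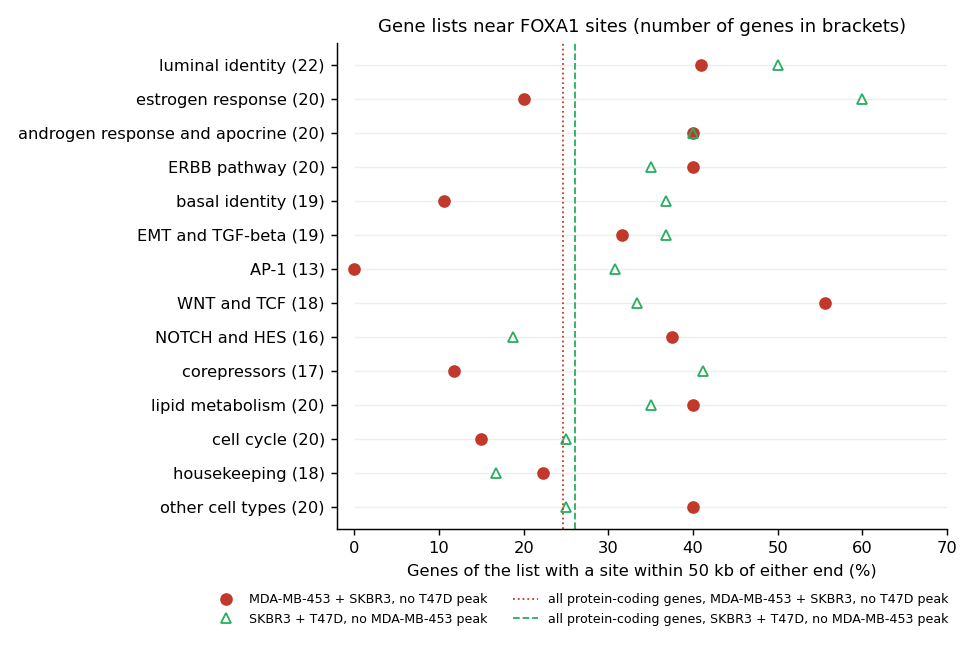
Percent of the genes of each list with a site within 50 kb of either gene end (x axis), for shared sites (red circles) and sites of SKBR3 and T47D (green triangles), beside the same over all protein-coding genes (vertical lines, 24.6% and 26%). WNT and TCF genes lie highest for shared sites (55.6%) and estrogen response genes for sites of SKBR3 and T47D (60%).

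WNT and TCF genes had a shared site in 10 of 18 (55.6%, median 1 per gene), against 6 of 18 for SKBR3 and T47D sites and 9 of 18 for MDA-MB-453 and T47D sites. They span the ligands WNT5A and WNT7B, the receptors FZD7, LGR4 and LGR5, the nuclear factors TCF7L2 and LEF1, and the feedback inhibitors AXIN2, ZNRF3 and NKD1. NKD1, an inhibitor of Dishevelled, had 4 shared sites and WNT7B and LGR4 had 3 each. At WNT7B, 2 of the 3 had TLE3 of both MDA-MB-453 libraries, against 14.0% of all shared sites. One of them (chr22:45911649-45912281) had TLE3 percentiles of 53.5 and 23.8 in MDA-MB-453, 73.3 and 82.9 in SKBR3, and 21.9 in T47D replicate 2. NOTCH and HES genes had a shared site in 6 of 16, EMT and TGF-beta genes in 6 of 19, lipid metabolism genes in 8 of 20 and corepressors in 2 of 17. Lists with no tie to the luminal program were not lower throughout: housekeeping genes had 4 of 18, cell cycle genes 3 of 20 and marker genes of other cell types 8 of 20.

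Over all protein-coding genes the median number of shared sites within 50 kb was 0, and 419 genes had 3 or more. ESR1, the estrogen receptor gene, had 3, and 37 FOXA1 sites of T47D against 17 of MDA-MB-453 and 14 of SKBR3 within 50 kb of either end. Its shared site at chr6:152096709-152097561, inside the gene, had FOXA1 percentiles of 74.9 and 76.6 in MDA-MB-453 and 74.6 and 81.3 in SKBR3. TLE3 there was at 21.8 in MDA-MB-453 replicate 1, 57.6 and 36.9 in SKBR3 and 4.75 in T47D replicate 2. ERBB2, the receptor gene amplified in SKBR3, had 2, both with a T47D FOXA1 peak 334 to 340 bp away and with no TLE3 peak except in SKBR3 replicate 2. GATA3, a luminal transcription factor gene, had 1 (chr10:8002858-8003824), with FOXA1 at 89.4 and 88.5 in MDA-MB-453 and 90.9 and 92.4 in SKBR3 and TLE3 at 76.4, 45.9 and 24.4 in MDA-MB-453 replicates 1 and 2 and SKBR3 replicate 1.

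Androgen-regulated glucuronidation genes and 2 TLE genes stood out by number within their lists. UGT2B17 and UGT2B15, neighbours on chromosome 4 that inactivate androgens, had 5 and 4 shared sites, of which 3 lie within 50 kb of both genes. The site inside UGT2B17 (chr4:68562661-68563581) had FOXA1 percentiles of 69.1 and 69.7 in MDA-MB-453 and 84.9 and 88.7 in SKBR3, TLE3 at 68.2 and 32.2 in MDA-MB-453 and 94.9 in SKBR3 replicate 1, and its nearest T47D FOXA1 peak 55300 bp away. These genes are near-identical copies, so reads of 1 may be placed on the other. T47D had 6 FOXA1 sites within 50 kb of each gene, and a T47D FOXA1 peak lay 1621 bp from the shared site inside UGT2B15. Without read counts, a lack of T47D binding and a lack of T47D DNA around the site inside UGT2B17 cannot be told apart. UGT2B15 also had 4 sites of SKBR3 and T47D with no MDA-MB-453 peak, and UGT2B17 had 1. TLE1 had 5 shared sites, none with TLE3 of both MDA-MB-453 libraries. TLE3 had 2, both with it: the one at chr15:70023330-70024656 had FOXA1 at 92.6 and 87.8 in MDA-MB-453 and 92.2 and 90.8 in SKBR3, and TLE3 at 36.4 and 11.3 in MDA-MB-453 and 94.5 and 7.85 in SKBR3. SMAD3, a TGF-beta signal transducer, had 4 shared sites and its receptor gene TGFBR2 had 3, of which 1 each had TLE3 of both MDA-MB-453 libraries. Over all shared sites this share was 14.0%, and the small counts at single genes were not tested against it. FOXA1 itself had 1 shared site, among 28, 22 and 27 FOXA1 sites of MDA-MB-453, SKBR3 and T47D within 50 kb.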

How the data were processed

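Peak lists of 12 ChIP-seq libraries were used, 1 deposited list per library. The submitters' processing notes name hg38, with MACS2, SAMtools, BWA 0.7.5a and Trim Galore. Caller settings were not given in the sources used here. The score in the deposited lists is the authors' value per peak, with a lowest value of 2.00 to 2.04. Its quantity is not named, so it served as a rank inside each list.

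The 1134209 peaks were taken on chromosomes 1 to 22 and X, which left out 15. Overlap means at least 1 bp. Percentiles are ranks of the score within a list. Gene positions came from a RefSeq table of GRCh38.p14 without strand, so distance was taken to either gene end, within 50 kb for genes near a site. All 262 genes of 14 lists matched a symbol. Percents of sites with a TLE3 peak were compared over libraries by exact permutation. FOXA1 rank was equalised over 5 equal classes of the rank of the shared sites. Named were the genes nearest to the 10 sites with the highest FOXA1 rank, to the 10 with the highest TLE3 rank among sites with peaks of both MDA-MB-453 libraries and SKBR3 replicate 1, and to the 5 with the highest FOXA1 rank among sites with TLE3 in both T47D libraries. Also named were the 10 genes with most shared sites, the 3 of each list with most, the genes of the 6 highest ranked promoters, and ESR1, ERBB2, FOXA1, TLE3 and GATA3. Other list members and the genes of the densest stretches were named after their values were seen, not all names are printed, and 1 gene of the rule is not reported here. The members, lists and tests were chosen with earlier results of these data known. Python 3.11.15 with pandas 2.3.3, NumPy 2.4.6 and Matplotlib 3.10.9 was used, and the scripts were tested on simulated data.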

Additional observations from a re-analysis of the deposited data

How the results depend on the processing

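The comparison of lines, which cannot be told apart from the choice of sites by FOXA1, kept its direction under 20 alternatives. It lay between 23.3 and 37.0 points leaving out 1 library and between 23.2 and 31.5 points otherwise, and was 2.96 as a log2 ratio of percents, an alternative chosen after seeing the data. Its exact p ranged from 0.0667 to 0.2. The lower TLE3 at shared sites than at sites of all 3 lines kept its direction under 17 alternatives. It was -14.6 to -10.9 points leaving out 1 library and -13.0 to -10.8 otherwise. The higher TLE3 than at sites shared with T47D kept the direction of its mean under 20 alternatives. That mean was 3.36 to 7.53 points leaving out 1 library and 1.76 to 5.46 otherwise. It was lowest at equal width, where 2 of 4 libraries turned. None of these could pass 0.05. At equal FOXA1 rank the mean changed sign when each list was limited to its upper 50% by score (-0.471 points) and at equal width (-1.92), and it lay between -1.99 and 4.58 leaving out 1 library. The cause was not tested.

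The replicate numbers did not pair the libraries (correlations of same-numbered deviations of 0.193, -0.180 and -0.0471 between lines). With a replicate block the values were 30.2, -13.0, 4.63 and 0.391 points, as without it, and the exact p-values were 0.111, 0.5, 0.5 and 1 for the 4 comparisons.

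The number of shared sites was 4455 in the upper 50% of each list, 11937 when T47D peaks of 1 replicate were allowed and 15504 when T47D peaks scored below the median of their list were not counted, which was chosen after seeing the data. Leaving out 1 FOXA1 library gave 7730 to 10205. Genes near a shared site numbered 7375 with T47D peaks of 1 replicate allowed, 1565 within 10 kb, 7559 within 100 kb, and 5219 to 6588 leaving out 1 FOXA1 library. The absence of a T47D peak thus rests on the threshold of those lists. Counts of list genes and of sites at named genes stayed within 1.5 times in 765 of 960 recalculations. Estrogen response genes near a shared site numbered 3 to 7 of 20 over the alternatives, WNT and TCF genes 4 to 11 of 18, and AP-1 genes 0 to 6 of 13. Peak lists without read counts do not show whether a site without a peak was bound below the threshold.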
